A study of Rattus norvegicus with 32 samples.

Results

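The male hearts of the series that came from rats with cecal ligation and puncture (CLP) and landiolol were compared with the hearts of sham-operated males. The aim was to describe which transcripts differed from sham in hearts taken at 20 h from rats that had received the drug. Members were chosen from the labels of sex and treatment, and are 6 CLP plus landiolol arrays and 5 sham arrays, so 11 of the 32 arrays of the series. CLP is a surgical model of abdominal sepsis in which gut bacteria leak into the peritoneum. Landiolol blocks the β1-adrenergic receptor for minutes only, and was infused from shortly after surgery. All animals were adult Wistar rats, all received buprenorphine for pain, and a saline infusion of like volume was the carrier of the drug and the only infusion of the sham and CLP groups. Sham males had surgery without CLP, and no sham group received landiolol, so what the drug does without sepsis was not measured. One left ventricle was hybridised per 1-colour array, after imaging of the living animal and perfusion of the isolated heart, and hearts were taken from a larger set of animals. The 5 male CLP arrays without drug shared the fit, and the 5 sham and 6 CLP plus landiolol arrays of females gave a second, separate comparison.

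In sepsis the heart is exposed to circulating bacterial products, cytokines, glucocorticoids and high catecholamines. Cardiac cells answer through NF-kappaB and through the IL-6 receptor, JAK2 and STAT3, and secrete acute phase and defence proteins, while tissue macrophages and recruited leucocytes change in number and state. The β1-receptor raises cyclic AMP and activates protein kinase A, which phosphorylates calcium handling proteins and the transcription factors CREB and CREM, whereas α1-receptors signal through phospholipase C.

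Of 25864 probes tested, which stand for 19466 genes, 1074 differed between CLP plus landiolol and sham at an FDR of 1%, which is 4.15% of all probes. Of these, 620 were higher (2.4%) and 454 lower (1.76%) under CLP plus landiolol, the median size of the change was 1.08 on the log2 scale, and the median change over all probes tested was -0.00225. They belonged to 954 genes, 542 higher and 412 lower, and 420 and 359 of these had a gene symbol. A change over 4-fold was seen for 92 probes that were higher and 40 that were lower. Levels of the groups did not overlap for 2016 probes (7.79%), 1095 higher (4.23%) and 921 lower (3.56%), and 958 of the called probes were among them. For comparison, 2020 probes (7.81%) differed between CLP and sham, 1002 higher (3.87%) and 1018 lower (3.94%), and both counts rest on the same 5 sham arrays. CLP plus landiolol differed from CLP in 403 probes at an FDR of 5% (1.56%), 208 higher (0.804%) and 195 lower (0.754%). The count against sham was 664 without sham replicate 2, 696 without replicate 3 and 633 without replicate 4. It was 726 with a day number as a term of the model. That number comes from reading the digits that end the sample names as a date, and the labels do not say what they mark. Read so, CLP plus landiolol samples tended to be later than sham samples, so day and treatment are partly confounded.

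Arrays had 34920 to 43155 spots well above background and a median signal of 49.2 to 158 before normalisation, with the fewest and dimmest on CLP plus landiolol replicate 5 and the most and brightest on sham replicate 4. Pearson correlations between arrays of 1 male group were 0.950 to 0.989. Arrays of both groups lay on both slides, 2 and 3 for sham and 3 and 3 for CLP plus landiolol. Each of the 1074 called probes had the same direction on both slides. They were called on these same arrays, which favours that outcome, so it is no separate check of the slide. With the slide as a term of the model 1002 probes passed. The labelled tissue was checked against its markers. All 12 cardiomyocyte markers were measured, with a mean level of 16.9 to 17.4 in sham and 16.7 to 17.3 under CLP plus landiolol, and in limma 0 of them differed at an FDR of 1% and 3 had an unadjusted p under 0.05. Of 8 atrial markers, 7, among them Myl4, Myl7, Sln and Nppa, were well above background on all male arrays and Bmp10 on none, and the mean level of the 7 ran from 10.2 to 11.1 in sham and from 9.67 to 10.7 under CLP plus landiolol. Levels are normalised log2 intensities of 1 probe, so they are set against other arrays and never against another gene, and fold changes are given on the log2 scale with their standard error.

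**Figure D1:**
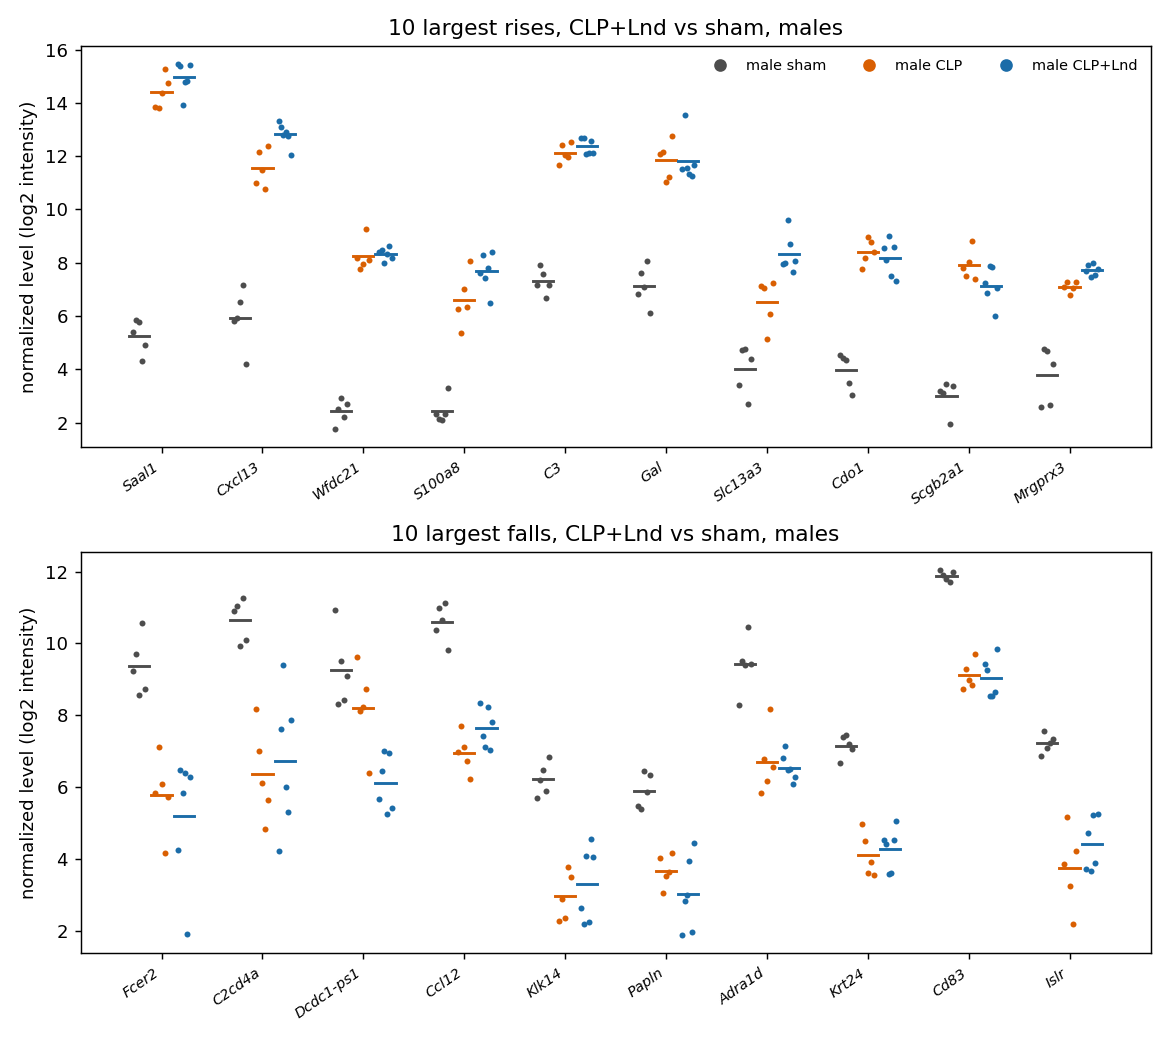
Normalised log2 intensity of the 10 genes that rose most and the 10 that fell most in males with CLP plus landiolol against sham, 1 point per array (5 sham, 5 CLP, 6 CLP+Lnd), with a bar at each group mean. Genes were chosen for a lack of overlap between sham and CLP+Lnd, and the CLP points show the same genes in septic rats without the drug.

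The largest rises included secreted defence proteins, a chemokine, a neuropeptide and a calcium-binding protein of myeloid cells. A probe named Saal1 had sham levels of 5.39, 5.87, 5.76, 4.31 and 4.91 and lay under CLP plus landiolol between 13.91 and 15.46 (median 15.10), a change of 9.72 ± 0.35 (adjusted p = 2.8e-10). The RefSeq table gives Saal1 also as an older name of Saa3, the serum amyloid A that macrophages and other cells outside the liver make, so it is uncertain which of these transcripts the probe measures. C3, the central complement component, had levels of 7.15, 7.90, 7.56, 6.69 and 7.17 in sham and lay between 12.09 and 12.70 (median 12.35), a change of 5.08 ± 0.22 (adjusted p = 8.37e-10). Wfdc21, a small secreted protein with a WAP domain, was well above background on 0 of 5 sham arrays and lay between 7.997 and 8.65 (median 8.37) under CLP plus landiolol, at least 37.5-fold higher (adjusted p = 8.37e-10). This bound, like the other bounds given as "at least", holds for the main background subtraction only. All 6 treated arrays lay above all 5 sham arrays for Saal1, C3 and Wfdc21, as the rule that chose the largest rises requires. In the rn4 build named in the file headers, the Saal1 probe lies at chr1:97248442-97248501, that of Cxcl13 at chr14:15127379-15127438, that of Cyp2e1 at chr1:200927736-200927795, that of Nmrk2 at chr7:10001669-10001728 and that of Adra1d at chr3:119280059-119280118. Which exon each probe lies in was not analysed here.

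Cxcl13, the chemokine that draws B cells into lymphoid tissue, had sham levels of 5.81, 5.94, 6.52, 7.18 and 4.19 and lay between 12.06 and 13.34 (median 12.87) under CLP plus landiolol, a change of 6.90 ± 0.44 (adjusted p = 1.58e-07). Gal, the neuropeptide galanin, was at 6.83, 7.60, 7.11, 8.05 and 6.13 in sham and between 11.25 and 13.55 (median 11.54) under CLP plus landiolol, a change of 4.67 ± 0.44 (adjusted p = 1.02e-05). The treated array at the top, replicate 2, stood well apart from the other 5 treated arrays, which did not exceed 11.66. S100a8, a subunit of the calprotectin complex of neutrophils and monocytes, was not well above background in any sham heart and lay between 6.48 and 8.40 (median 7.71) under CLP plus landiolol, at least 23.7-fold higher (adjusted p = 2.2e-06). Its partner S100a9 had sham levels of 4.50, 3.90, 4.61, 4.47 and 4.35 and lay between 7.27 and 8.94 (median 8.17), a change of 3.72 ± 0.46 (adjusted p = 0.000142).

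The other 4 of the 10 largest rises were in genes of metabolism, secretion and sensing. Slc13a3, a sodium-coupled carrier of dicarboxylates, lay between 2.71 and 4.78 in sham and between 7.66 and 9.59 (median 8.02) under CLP plus landiolol, and its CLP levels, 7.14, 7.07, 5.13, 6.07 and 7.24, were between the other groups. The change was 4.33 ± 0.47 against sham (adjusted p = 4.11e-05) and 1.80 ± 0.47 against CLP, which did not pass an FDR of 5% (adjusted p = 0.0704). Cdo1, the cysteine dioxygenase that opens the path to taurine, was well above background on 4 of 5 sham arrays and rose by 4.22 ± 0.35 (adjusted p = 2.66e-06). Mrgprx3, a receptor of the Mas-related family, was well above background on 2 of 5 sham arrays and rose by 3.95 ± 0.35 (adjusted p = 6.24e-06). Scgb2a1, a secretoglobin, was well above background on 0 of 5 sham arrays and was at least 15.2-fold higher under CLP plus landiolol (adjusted p = 4.37e-06).

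The size of the change in these dim probes depended on the background correction, while the calls did not. With normexp correction the change was 2.62 for Wfdc21, 1.91 for S100a8 and 1.499 for Scgb2a1, which is 6.15-fold, 3.76-fold and 2.83-fold and below the bounds given above. It was 2.14 for Cdo1, 1.74 for Mrgprx3, 2.27 for Slc13a3 and 1.97 for S100a9. Of the 69 named genes that were called, 19 had a change more than 1.5 times smaller with normexp and 9 with the table of the authors.

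The largest falls included genes of B cells and dendritic cells, a chemokine, an adrenergic receptor and matrix genes. Fcer2, the low-affinity IgE receptor CD23 of B cells, had sham levels of 9.24, 9.70, 8.55, 10.57 and 8.74 and lay between 1.90 and 6.47 (median 6.06) under CLP plus landiolol, a change of -4.17 ± 0.75 (adjusted p = 0.00234). Its lowest treated value came from replicate 5, the dimmest array, and 4 of the 6 treated arrays were well above background. Cd83, carried by activated dendritic cells and B cells, had sham levels of 12.03, 11.92, 11.79, 11.72 and 11.999, which differed little from each other, and lay between 8.53 and 9.84 (median 8.95), a change of -2.85 ± 0.24 (adjusted p = 2.71e-06). Ccl12, a chemokine for monocytes, was at 10.39, 10.98, 10.65, 11.14 and 9.83 in sham and between 7.04 and 8.33 (median 7.62) under CLP plus landiolol, a change of -2.94 ± 0.31 (adjusted p = 2.61e-05). For Ccl12 the 2 ranges were separated by more than the width of either.

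C2cd4a, which encodes a protein with a C2 domain, fell by 3.91 on the log2 scale (SE 0.788, adjusted p = 0.00515), with treated levels spread between 4.21 and 9.41 (median 6.81). That call was lost in 9 of 27 alternative fits. Klk14, a secreted serine peptidase, was well above background on 0 of 6 CLP plus landiolol arrays and was at least 4.90-fold lower than in sham (adjusted p = 0.000664). Papln, a matrix glycoprotein, lay between 5.39 and 6.44 in sham and was well above background on 1 of 6 treated arrays, so that its change of -2.88 ± 0.41 (adjusted p = 0.000428) rests mostly on treated levels near background. Islr, a gene of fibroblasts and other mesenchymal cells, changed by -2.81 ± 0.44 (adjusted p = 0.000828), and the keratin gene Krt24 by -2.87 ± 0.30 (adjusted p = 2.48e-05), each well above background on 3 of 6 treated arrays. With normexp correction the changes were -0.78 for Klk14, -0.77 for Papln, -1.24 for Islr, -1.36 for Krt24 and -2.70 for Fcer2, all still called. For Klk14 that is 1.71-fold, below the bound. The pseudogene Dcdc1-ps1 was at 10.93, 8.33, 9.51, 8.44 and 9.09 in sham and lay between 5.25 and 6.999 (median 6.07) under CLP plus landiolol, a change of -3.13 ± 0.56 (adjusted p = 0.0022). In CLP without the drug its levels were 9.61, 8.11, 8.23, 8.74 and 6.39, and -1.04 ± 0.58 against sham did not pass (adjusted p = 0.263).

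**Figure D2:**
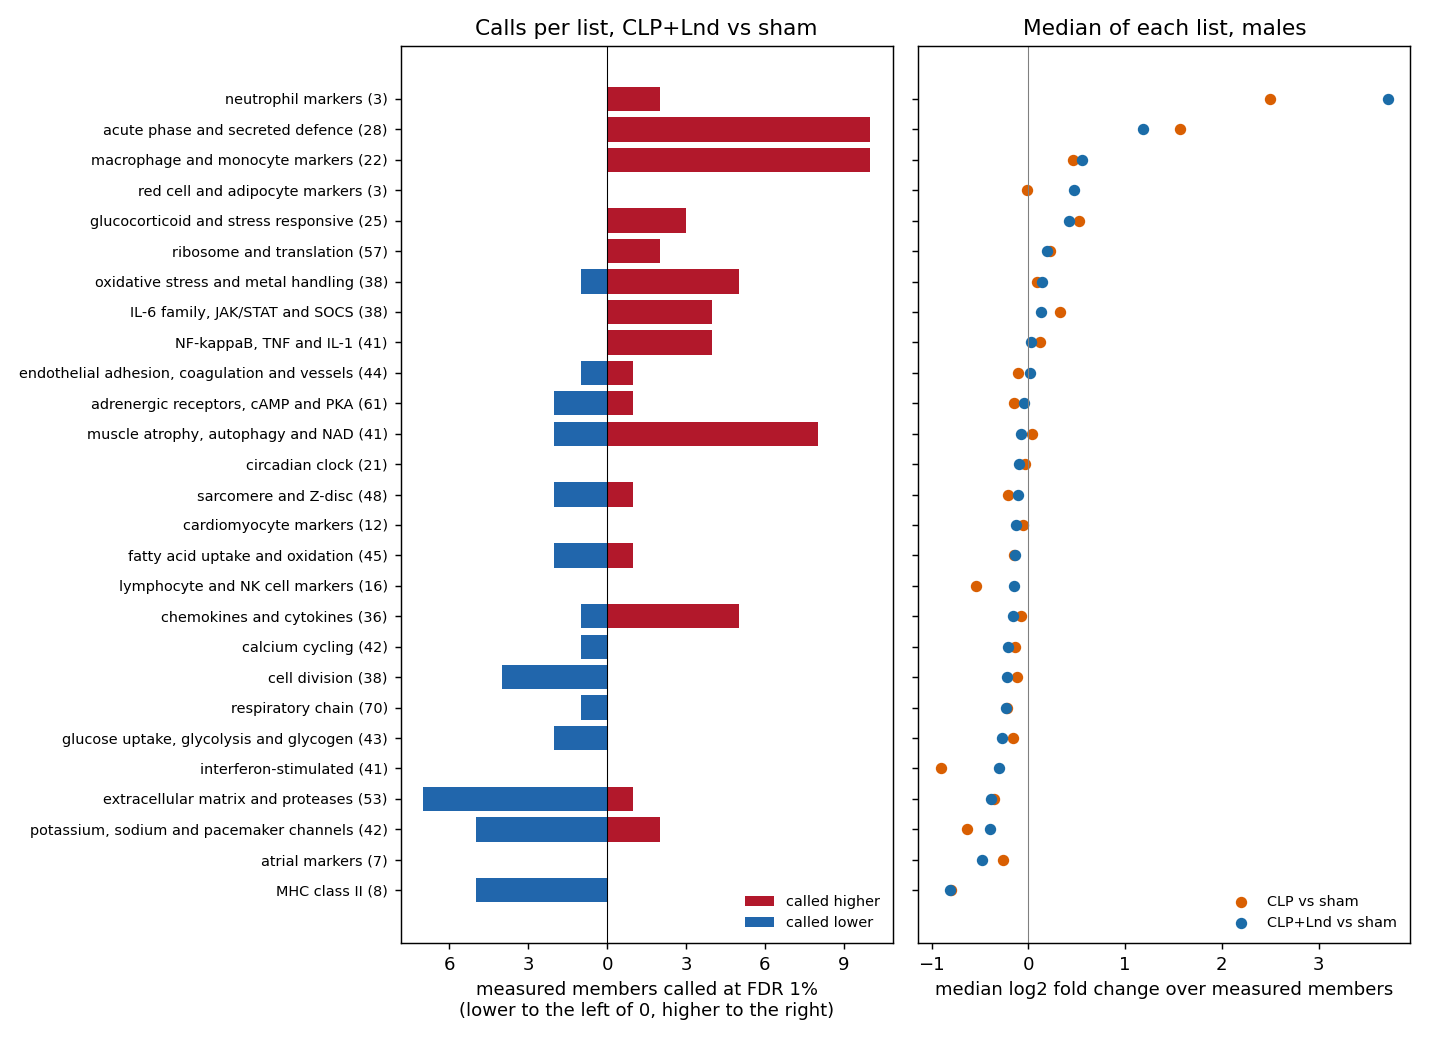
Left, number of measured members of each gene list that passed an FDR of 1% between CLP plus landiolol and sham in males, with the number measured in brackets. Right, median log2 fold change over the measured members for CLP plus landiolol vs sham and, beside it, CLP vs sham, which shares the sham arrays. Macrophage and acute phase lists each hold 10 members that were higher, and MHC class II holds 5 of 8 that were lower.

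Gene lists were described by 1 probe per gene, beside the 4.15% called and the median of -0.00225 over all probes. Of 28 acute phase and secreted defence genes measured, 10 rose and 0 fell, and the median was 1.19 (1.56 for CLP vs sham, where 14 rose). Besides Saal1, C3 and Wfdc21, the members that rose were the iron-binding siderophore trap Lcn2 (3.57), the plasma protein Orm1 (2.79), the protease inhibitor Slpi (2.76), the phospholipase Pla2g2a (2.28), complement factor Cfb (2.12), ceruloplasmin Cp (1.46) and the endotoxin carrier Lbp (1.16). Reg3b had a change of 3.46 and Reg3g of 2.72 and did not pass. Mean levels of the list ran from 7.80 to 8.44 on sham arrays and from 9.87 to 10.3 on CLP plus landiolol arrays, so the groups did not overlap. With normexp background correction the median of the list was 0.809.

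Among 36 chemokines and cytokines, 5 rose and 1 fell, with a median of -0.16 that turned positive, 0.05, with array weights. The list also holds the neuropeptide gene Gal, which is 1 of the 5 that rose. It does not hold the chemokine Ccl12, whose change of -2.94 is given above. Csf3, the growth factor of neutrophils, had sham levels of 6.39, 7.18, 5.69, 6.85 and 6.76 and lay between 8.64 and 12.18 (median 9.86), a change of 3.53 ± 0.53 (adjusted p = 0.000644). Il10, the anti-inflammatory cytokine, was well above background on 1 of 5 sham and 4 of 6 treated arrays and changed by 3.06 ± 0.63 (adjusted p = 0.00592). The call for Il10 was lost in 10 of 26 alternative fits, and its change was 1.07 with the table of the authors and 0.874 with normexp. Il18, a cytokine matured by the inflammasome, rose by 1.71 and the eosinophil chemokine Ccl24 fell by 1.90. Il6, Tnf and Il1b, the early cytokines of sepsis, had changes of -0.09, -0.47 and -0.17 and did not pass.

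In the IL-6 family and JAK/STAT list, 4 of 38 members rose and 0 fell (median 0.13, against 0.33 for CLP vs sham). Besides Il10 these were the kinase Jak2, the shared receptor chain Il6st and the factor Stat3. Jak2 had sham levels of 9.22, 9.32, 8.24, 8.24 and 8.80 and lay between 9.56 and 10.78 (median 10.15), a change of 1.43 ± 0.26 (adjusted p = 0.00257). Stat3 was at 11.76, 11.86, 11.52, 11.40 and 11.58 in sham, at 12.72, 12.91, 13.44, 13.57 and 13.46 in CLP and between 12.22 and 12.79 (median 12.33) under CLP plus landiolol. It was higher than sham by 0.78 ± 0.17 (adjusted p = 0.0071) and lower than CLP by 0.815 (adjusted p = 0.0236), so its mean lay between those of the other groups, with no overlap with sham. Il6st changed by 0.82 ± 0.17 (adjusted p = 0.00721). The calls against sham were lost in 12 of 27 alternative fits for Stat3, with adjusted p up to 0.0242, and in 14 for Il6st. Il6r, the ligand-binding receptor chain, had sham levels of 7.73, 8.02, 7.51, 8.504 and 7.80, CLP levels of 8.93, 9.18, 9.74, 10.07 and 9.43 and CLP plus landiolol levels between 7.78 and 8.40 (median 8.07). It differed by 0.18 ± 0.21 from sham, which did not pass (adjusted p = 0.652), and by -1.38 ± 0.21 from CLP (adjusted p = 0.00496). Socs3, the feedback inhibitor of the pathway, had a change of 0.09 and did not pass.

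Of 41 NF-kappaB, TNF and IL-1 genes, 4 rose and 0 fell, with a median of 0.03 that changed sign in 3 alternative fits. The bacterial lipopeptide receptor Tlr1 was at 4.08, 2.98, 4.17, 3.29 and 3.28 in sham, where 2 of 5 arrays were well above background, and between 5.33 and 6.64 (median 6.37) under CLP plus landiolol, a change of 2.55 ± 0.29 (adjusted p = 7.69e-05). With the table of the authors the change of Tlr1 was 0.99 and did not pass. Il1r2, a decoy receptor of IL-1, rose by 1.76 ± 0.27 (1.11 with normexp, adjusted p = 0.000797) and Irak3, which restrains Toll-like receptor signalling, by 1.47 ± 0.24 (adjusted p = 0.00109). The fourth was the TNF receptor gene Tnfrsf1a (0.83). Nfkbia and Tnfaip3, which NF-kappaB itself induces, had changes of 0.14 and -0.03 and did not pass.

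None of the 41 interferon-stimulated genes passed against sham under CLP plus landiolol in limma (6 had an unadjusted p under 0.05), where the list median was -0.30, while 7 were lower in CLP vs sham, with a median of -0.90. The sham arrays were far apart. Cxcl9, a chemokine induced by interferon gamma, was at 11.44, 10.36, 7.79, 7.85 and 8.13 in sham, 5.91, 6.29, 5.89, 6.66 and 7.21 in CLP and between 6.86 and 8.08 (median 7.29) under CLP plus landiolol. Its change of -1.75 ± 0.57 did not pass (adjusted p = 0.064), and was -3.20 on the first slide and -0.90 on the second. Cxcl10 was at 13.26, 11.79, 9.60, 10.47 and 9.99 in sham and between 8.19 and 10.70 (median 9.24) under CLP plus landiolol, a change of -1.70 ± 0.60 (adjusted p = 0.0888). Sham replicates 1 and 2 were the highest for both chemokines, and they were also the highest for the mean of the list. They were the only sham arrays on the first slide, so within sham a difference between hearts and between slides cannot be told apart. Without sham replicate 1 the list median was -0.0983, and it was -0.516 without sham replicate 5.

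Of 8 genes of MHC class II, which presents peptides to helper T cells, 5 fell and 0 rose, with a median of -0.81 (-0.80 for CLP vs sham). RT1-Da had sham levels of 10.54, 10.88, 11.09, 11.02 and 10.498 and lay between 9.05 and 9.98 (median 9.70), a change of -1.16 ± 0.18 (adjusted p = 0.000772). RT1-Bb was at 10.97, 10.83, 11.31, 10.99 and 10.90 in sham and between 9.79 and 10.28 (median 10.07) under CLP plus landiolol, a change of -0.94 ± 0.13 (adjusted p = 0.000342). Ciita, the factor that switches these genes on, changed by -0.95 ± 0.16 (adjusted p = 0.00122), or -0.49 with normexp, and the invariant chain Cd74 and RT1-Db1 fell by 0.85 and 0.78. For each of the 5 the treated arrays lay below all sham arrays, a lack of overlap shared by 958 of the 1074 called probes. RT1-DMa, which helps to load the peptide, had a change of 0.97 and did not pass.

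Of 22 macrophage and monocyte markers measured, 10 rose and 0 fell, with a median of 0.56. Adgre1, the macrophage antigen F4/80, was at 7.01, 8.19, 8.74, 8.30 and 7.56 in sham and between 10.48 and 11.74 (median 11.39) under CLP plus landiolol, a change of 3.29 ± 0.33 (adjusted p = 1.7e-05). Msr1, a scavenger receptor, had sham levels of 6.13, 5.25, 5.19, 4.95 and 4.95 and lay between 6.90 and 7.74 (median 7.56), a change of 2.16 ± 0.24 (adjusted p = 4.87e-05), or 1.204 with normexp. The inhibitory Fc receptor Fcgr2b changed by 1.80 ± 0.30 (adjusted p = 0.00135). The other members that rose were Fcer1g (1.53), Lyz2 (1.51), Itgam (1.49), Aif1 (1.21), Cd68 (1.01), Spi1 (0.86) and Tyrobp (0.79). The growth factor receptor Csf1r (-0.24), the complement genes C1qa (0.28), C1qb (0.37) and C1qc (0.09), and Cd163 (0.19) did not pass. In whole ventricle, more cells of a type and more RNA per cell cannot be told apart.

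Only 3 of 19 neutrophil markers were measured. S100a8 and S100a9 rose, Padi4 did not pass (0.17), and the 16 others, among them Mpo, Elane, Cxcr2, Camp and Mmp9, failed the filter, 8 of them with no male array well above background. The median change of the 3 was 3.72, or 1.91 with normexp. Mean levels of the 3 ran from 3.58 to 4.64 in sham and from 6.07 to 7.52 under CLP plus landiolol. S100a8 (0 of 5 sham arrays well above background) and S100a9 (3 of 5) passed the filter only through the CLP and CLP plus landiolol groups. The filter thus favoured a rise of this list, and its median and mean levels are no separate support for one. None of 16 lymphocyte and NK cell markers passed in limma, 2 had an unadjusted p under 0.05, and 9 others failed the filter. The median of the 16 was -0.15 and changed sign in 3 alternative fits. Of B cell genes in that list, Ms4a1 was well above background on 0 male arrays, Cd79a on 2 of 5 sham and 1 of 6 CLP plus landiolol arrays, and Cd79b on 1 of 5 and 0 of 6, beside the falls of Fcer2 and Cd83. Mean levels of the macrophage list ran from 9.37 to 9.84 in sham and from 9.99 to 10.6 under CLP plus landiolol. The part of cell numbers in the changes of the immune genes was not tested.

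**Figure D3:**
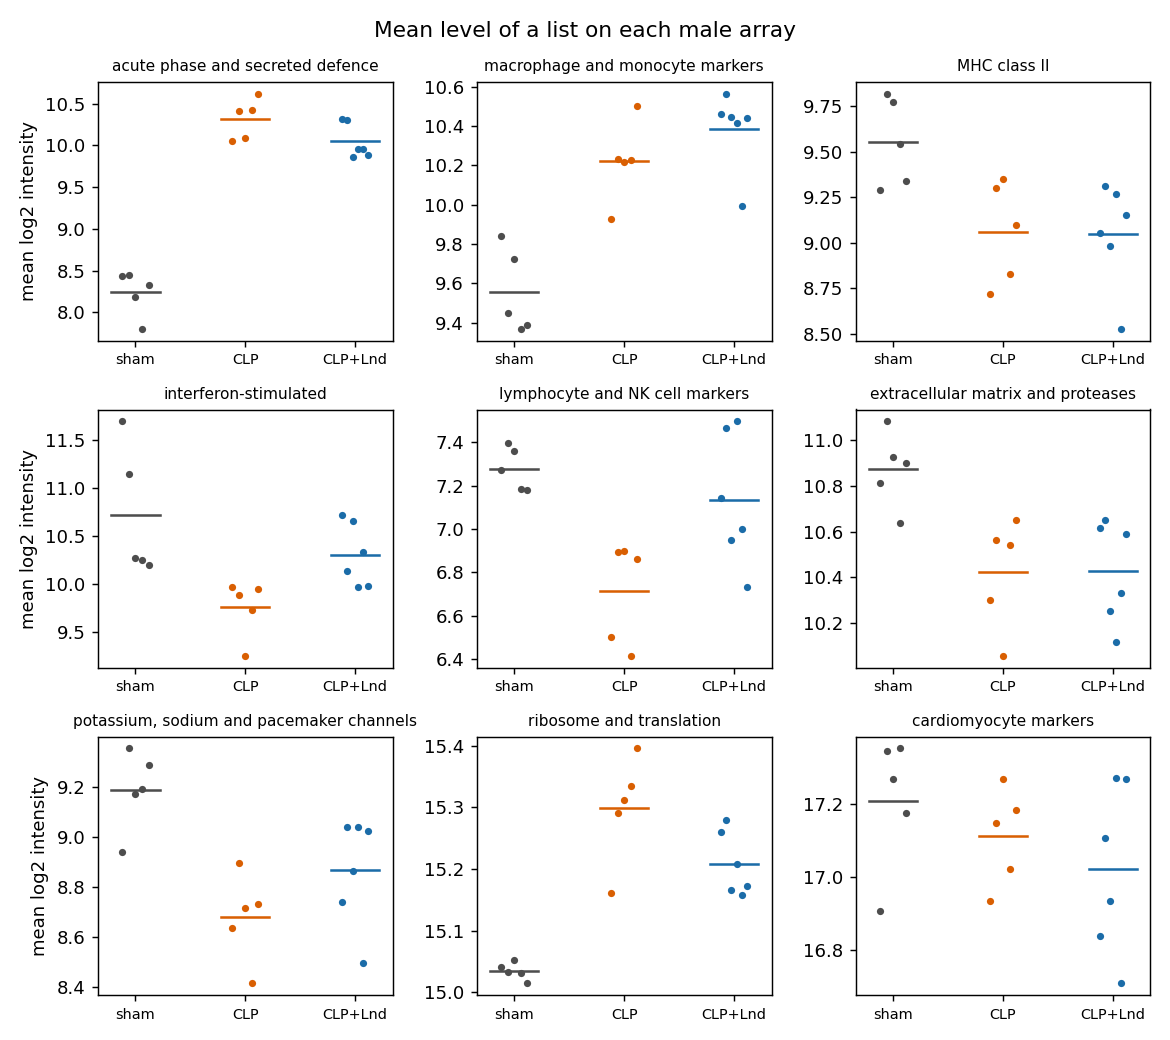
Mean log2 intensity over the measured members of 9 gene lists on each male array, 1 point per array, with a bar at each group mean and axes that do not start at 0. Acute phase, macrophage and ribosome lists lie above sham on every CLP plus landiolol array, and for the cardiomyocyte markers the groups overlap.

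The adrenergic system is the target of landiolol. Of 61 measured genes of adrenergic receptors, cyclic AMP and protein kinase A, 1 rose and 2 fell against sham under CLP plus landiolol. These calls are 4.92% of the list, near the 4.15% of all probes, and 6 rose and 9 fell in CLP vs sham. Both falls were α1-receptors. Adra1d had sham levels of 8.29, 9.52, 9.40, 10.45 and 9.43 and lay between 6.08 and 7.14 (median 6.48), a change of -2.87 ± 0.39 (adjusted p = 0.000283), against -2.71 ± 0.41 in CLP vs sham (adjusted p = 0.000366). Adra1b was at 12.84, 13.62, 13.18, 13.66 and 13.52 in sham and between 11.57 and 12.57 (median 12.31) under CLP plus landiolol, a change of -1.22 ± 0.24 (adjusted p = 0.00485) that was lost in 7 of 27 alternative fits. Arrb2, the arrestin that uncouples and internalises receptors, rose by 0.80 ± 0.15 (adjusted p = 0.003), and was lost in 5.

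Adrb1, the receptor that landiolol blocks, did not pass. It was at 6.66, 6.51, 6.22, 6.81 and 6.60 in sham, 6.30, 6.03, 6.16, 6.37 and 6.49 in CLP and between 5.70 and 6.87 (median 6.31) under CLP plus landiolol, a change of -0.26 ± 0.18 (adjusted p = 0.395). The groups overlapped for this receptor. Grk5, a kinase that desensitises adrenergic receptors, had sham levels of 8.97, 9.06, 9.13, 9.13 and 8.67 and lay between 9.47 and 9.81 (median 9.500). It did not overlap between the groups but missed the FDR of 1% (0.56 ± 0.15, adjusted p = 0.0258), and in CLP vs sham it passed (0.90 ± 0.15, adjusted p = 0.00108).

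Crem, a cyclic AMP-responsive factor, had CLP plus landiolol levels inside the sham range. It was at 11.77, 12.15, 11.27, 11.89 and 11.74 in sham, at 13.34, 12.72, 13.19, 13.14 and 12.96 in CLP and between 11.31 and 12.05 (median 11.73) under CLP plus landiolol. It differed by -0.05 ± 0.18 from sham (adjusted p = 0.9) and by -1.35 ± 0.18 from CLP (adjusted p = 0.00249). Akap6, which anchors protein kinase A at the nuclear envelope, was at 9.83, 10.03, 10.20, 10.11 and 9.87 in sham, 9.20, 9.04, 8.63, 8.86 and 8.73 in CLP and between 9.32 and 9.74 (median 9.41) under CLP plus landiolol. Its difference from sham, -0.54 ± 0.12, just missed the FDR of 1% (adjusted p = 0.0107), passed in 8 of 27 alternative fits, and its difference from CLP was 0.57 ± 0.12 (adjusted p = 0.0296). The phosphatase subunit Ppp2ca changed by 0.20 ± 0.13 and did not pass (adjusted p = 0.396).

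**Figure D4:**
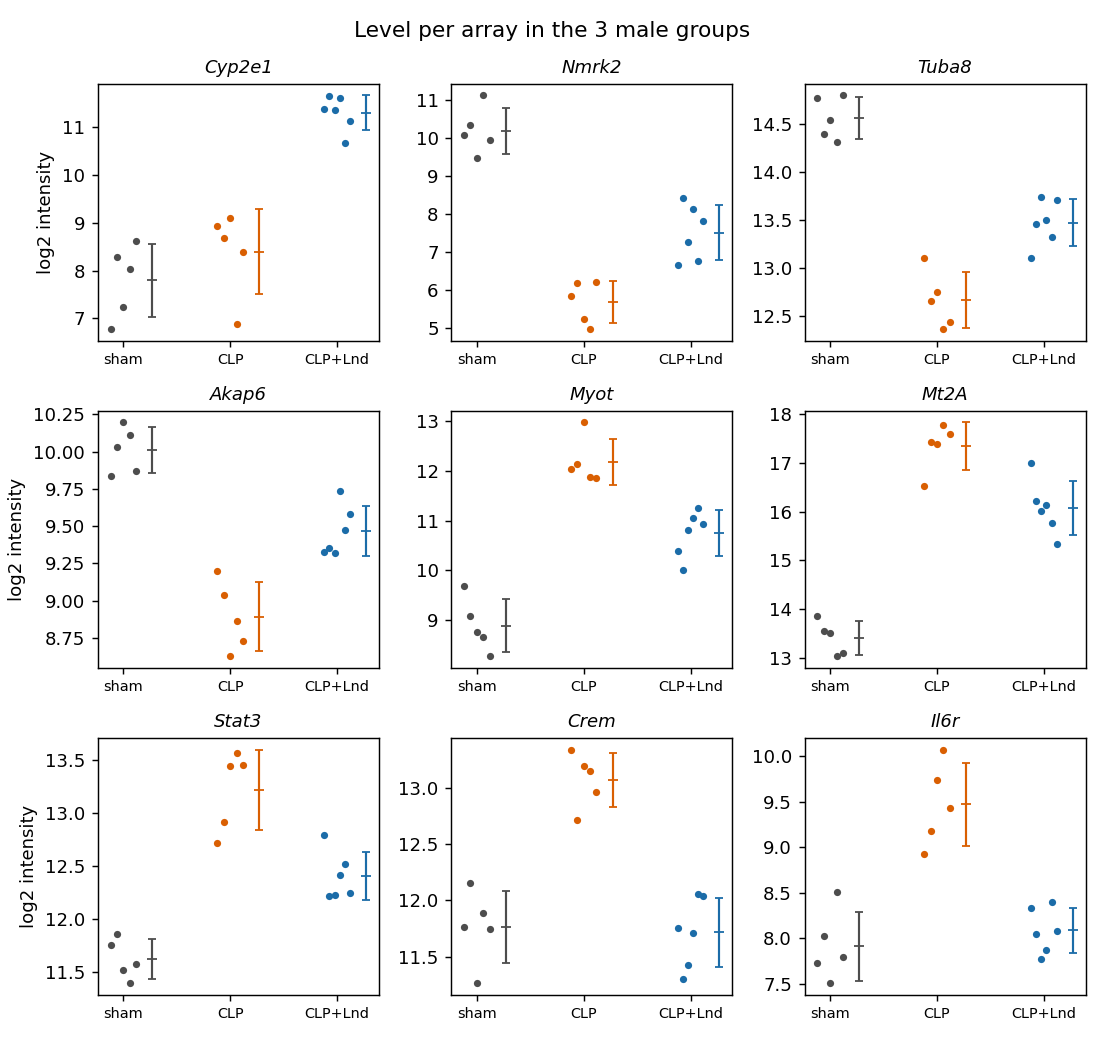
Log2 intensity per array of 9 genes in male sham (n = 5), CLP (n = 5) and CLP plus landiolol (n = 6) hearts, with mean and SD beside the points and axes that do not start at 0. Crem and Il6r under CLP plus landiolol lie in the range of sham, the means of Nmrk2, Tuba8, Akap6, Myot, Mt2A and Stat3 lie between those of sham and CLP, and Cyp2e1 lies above both.

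Some genes passed against sham under the drug and did not pass in CLP vs sham. Cyp2e1, a cytochrome P450 that oxidises ethanol, ketones and fatty acids, was at 6.78, 8.29, 7.24, 8.04 and 8.62 in sham and 8.93, 8.69, 9.10, 6.88 and 8.39 in CLP and lay between 10.67 and 11.66 (median 11.36) under CLP plus landiolol. The change was 3.50 ± 0.39 against sham (adjusted p = 4.87e-05) and 2.90 ± 0.39 against CLP (adjusted p = 0.00309), while 0.60 ± 0.40 for CLP vs sham did not pass (adjusted p = 0.366). Each treated array lay above each of the 10 other male arrays. Cd36, the fatty acid transporter, had sham levels of 15.40, 15.69, 15.65, 15.81 and 15.60 and lay between 15.92 and 16.26 (median 16.22), a change of 0.54 ± 0.0983 (adjusted p = 0.00256), with 0.21 ± 0.10 in CLP vs sham (adjusted p = 0.182). Hk2, the insulin-responsive hexokinase, changed by -1.17 ± 0.19 (adjusted p = 0.00112), with -0.76 ± 0.20 in CLP vs sham, which did not pass (adjusted p = 0.0154). Of these genes, a difference from CLP at an FDR of 5% was found for Cyp2e1, and for Cd36 and Hk2 adjusted p was 0.123 and 0.333.

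In the list of muscle atrophy, autophagy and NAD metabolism, 8 of 41 members rose and 2 fell (median -0.08, with a change of sign in 3 alternative fits). Nmrk2, the nicotinamide riboside kinase of muscle, was at 10.08, 10.33, 9.49, 11.12 and 9.94 in sham, 5.85, 6.20, 5.25, 4.98 and 6.20 in CLP and between 6.67 and 8.43 (median 7.54) under CLP plus landiolol. It fell by 2.68 against sham (SE 0.362, adjusted p = 0.00027) and was higher than CLP by 1.82 ± 0.36 (adjusted p = 0.0214), and the 3 groups did not overlap. Bnip3, a receptor for the removal of mitochondria, had sham levels of 12.68, 13.75, 13.77, 14.11 and 13.46 and lay between 14.30 and 15.76 (median 15.31), a change of 1.69 ± 0.27 (adjusted p = 0.00112). The lysosomal protease Ctsl rose by 1.28 ± 0.17 (adjusted p = 0.00029). The other rises were in genes that build autophagosomes or load them, Sqstm1 (0.97), Gabarapl1 (0.94) and Map1lc3b (0.73), in the lysosomal membrane gene Lamp2 (0.58), and in Fbxo31 (0.72) and Trim54 (0.62), which encode an F-box and a TRIM protein. The muscle ubiquitin ligases Fbxo32 and Trim63, by which atrophy is usually followed, had changes of 0.67 and -0.10 and did not pass, and Parp1 fell by 0.69.

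Of 25 glucocorticoid and stress responsive genes, 3 rose and 0 fell (median 0.42, or 0.27 without sham replicate 1). Mt2A, a metallothionein, was at 13.86, 13.55, 13.52, 13.04 and 13.10 in sham, 16.52, 17.44, 17.40, 17.78 and 17.60 in CLP and between 15.34 and 17.01 (median 16.08) under CLP plus landiolol, with 2.67 ± 0.27 against sham (adjusted p = 2.1e-05) and -1.26 ± 0.27 against CLP (adjusted p = 0.0297). Fkbp5, a chaperone that the glucocorticoid receptor induces, had sham levels of 11.25, 11.36, 11.75, 11.36 and 11.70 and lay between 12.35 and 13.12 (median 12.98), a change of 1.39 ± 0.16 (adjusted p = 9.11e-05). Hsd11b1, which regenerates active corticosterone, rose by 1.26 ± 0.23 (adjusted p = 0.00262). Sgk1 and Tsc22d3, also induced by the receptor, had changes of 0.06 and 0.32 and did not pass.

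In oxidative stress and metal handling, 5 of 38 genes rose and 1 fell (median 0.14), and Mt2A belongs to this list as well. Hamp, the iron-regulating hormone hepcidin, was at 9.38, 11.27, 10.46, 10.73 and 9.91 in sham, 12.48, 13.34, 14.82, 14.98 and 14.31 in CLP and between 11.41 and 14.19 (median 12.81) under CLP plus landiolol, a change of 2.51 ± 0.51 against sham (adjusted p = 0.00535) that was lost in 10 of 27 alternative fits. Ncf4, a subunit of the phagocyte NADPH oxidase, had sham levels of 9.89, 9.48, 9.17, 9.18 and 9.43 and lay between 11.001 and 11.38 (median 11.20), a change of 1.76 ± 0.13 (adjusted p = 1.02e-06). Xanthine dehydrogenase Xdh (1.08) and ferritin light chain Ftl1 (0.67) rose, and the transferrin receptor Tfrc fell by 1.53. Members with a role in iron handling moved both ways.

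Promoters of hepcidin, S100a9 and Krt24 are shown as examples. Each gene passed and holds at least 1 of 4 motifs, as do Adgre1, Il6st, Islr, Saal1 and Scgb2a1, which are not shown. Motifs were searched on both strands in the window from 250 bases before to 50 after the start in the RefSeq table (GRCr8). Capitals mark the match, and only the 250 bases before the start are printed, 5′ to 3′ on the strand of the gene. The motifs were the STAT site TTCNNNGAA, the NF-kappaB core GGGANTTTC, the interferon response core GAAANNGAA and the cyclic AMP response element TGACGTCA, and a STAT site reads as itself on the other strand. For hepcidin (chr1:95300272-95300521, minus strand) the STAT match lies 117 to 109 bases before the start, for S100a9 (chr2:178490623-178490872, minus strand) the NF-kappaB match lies 178 to 170 bases before, and for Krt24 (chr10:84733487-84733736, minus strand) a STAT match lies 177 to 169 and an interferon response match 110 to 102 bases before.
Hamp: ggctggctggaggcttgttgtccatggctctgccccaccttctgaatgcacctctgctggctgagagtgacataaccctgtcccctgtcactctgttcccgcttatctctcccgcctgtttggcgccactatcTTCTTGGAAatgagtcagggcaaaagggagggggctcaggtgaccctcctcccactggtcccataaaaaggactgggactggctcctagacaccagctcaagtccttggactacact
S100a9: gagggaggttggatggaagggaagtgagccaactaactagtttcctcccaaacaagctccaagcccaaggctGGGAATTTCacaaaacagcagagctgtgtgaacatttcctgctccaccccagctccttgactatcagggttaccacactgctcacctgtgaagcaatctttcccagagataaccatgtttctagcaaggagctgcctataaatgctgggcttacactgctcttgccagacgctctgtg
Krt24: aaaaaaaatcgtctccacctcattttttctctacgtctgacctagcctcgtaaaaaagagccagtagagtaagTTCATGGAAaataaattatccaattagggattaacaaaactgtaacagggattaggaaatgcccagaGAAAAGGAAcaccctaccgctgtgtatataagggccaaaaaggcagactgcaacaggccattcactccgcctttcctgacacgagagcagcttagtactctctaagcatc
Of the genes whose reported probe was called, 290 of 378 that were higher and 250 of 313 that were lower had a promoter in the table. The STAT site was in 7.59% of those higher, 6.0% of those lower and 8.68% of all 27457 promoters. The NF-kappaB core was in 4 of those higher (1.38%), in 0 of those lower and in 1.13% of all. The interferon response core was in 9.66%, 6.8% and 9.5%, and the cyclic AMP response element in 1.72%, 2.4% and 1.91%. A match describes the letters in this window only.

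Among 42 channels and pacemaker genes, 2 rose and 5 fell with a median of -0.40, against 2 and 14 and a median of -0.64 in CLP vs sham. Kcnk1, a background potassium channel, lay between 2.98 and 4.58 in sham and between 5.93 and 7.66 (median 6.84) under CLP plus landiolol, a change of 3.30 ± 0.51 (adjusted p = 0.000819) that was 1.81 and did not pass with the table of the authors. Kcnk2, a stretch-sensitive background channel, had sham levels of 9.31, 10.15, 9.97, 10.34 and 9.65 and lay between 7.43 and 8.78 (median 8.55), a change of -1.47 ± 0.28 (adjusted p = 0.00379) that was lost without sham replicate 2, 3 or 4. Kcnd2, a subunit of the transient outward current, changed by -1.42 ± 0.30 (adjusted p = 0.00649) and was lost in 11 of 27 alternative fits. Scn2b (-1.34), Kcnn3 (-0.77) and the sulfonylurea receptor Abcc8 (-0.74) also fell and Kcnab2 rose by 1.10. The pacemaker gene Hcn2 had a change of -1.67 and did not pass.

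In calcium cycling, 1 of 42 genes fell and 0 rose (median -0.21), so 2.38% were called, against 4.15% of all probes. Jph2, junctophilin, which holds the sarcoplasmic reticulum close to the cell membrane, had sham levels of 15.56, 15.84, 15.64, 15.89 and 15.75 and lay between 13.51 and 14.48 (median 14.20), a change of -1.59 ± 0.19 (adjusted p = 9.24e-05). The treated arrays lay over 1 log2 unit below the lowest sham array. The calcium pump gene Atp2a2 (-0.21 ± 0.12, adjusted p = 0.296) and the release channel gene Ryr2 (-0.34 ± 0.28, adjusted p = 0.498) did not pass.

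Of 48 sarcomere and Z-disc genes, 1 rose and 2 fell (median -0.11), so 6.25% were called, against 4.15% of all probes. Myot, the Z-disc protein myotilin, was at 9.68, 9.09, 8.76, 8.65 and 8.28 in sham, 12.03, 12.14, 12.97, 11.88 and 11.86 in CLP and between 10.01 and 11.26 (median 10.88) under CLP plus landiolol. It was higher than sham by 1.85 ± 0.28 (adjusted p = 0.0006) and lower than CLP by 1.43 (adjusted p = 0.018), and the 3 groups did not overlap. Its rise was 1.02 on the first slide and 2.52 on the second. Tuba8, an α-tubulin of muscle and other tissues, was at 14.77, 14.40, 14.55, 14.32 and 14.80 in sham, 13.10, 12.66, 12.75, 12.37 and 12.44 in CLP and between 13.10 and 13.74 (median 13.48) under CLP plus landiolol. It fell by 1.09 against sham (SE 0.155, adjusted p = 0.0004) and was higher than CLP by 0.81 ± 0.15 (adjusted p = 0.0168). Myocd, the coactivator myocardin, changed by -1.20 ± 0.24 against sham (adjusted p = 0.00453), a call that was lost in 4 of 27 alternative fits, among them those without sham replicate 2 or 4 or CLP plus landiolol replicate 3.

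The myosin and natriuretic peptide genes did not pass against sham. Myh7b had sham levels of 12.56, 12.45, 11.83, 11.76 and 13.06 and lay between 11.12 and 12.56 (median 11.58), a change of -0.63 ± 0.30 (adjusted p = 0.224). Myh7 changed by 0.13 ± 0.0762 (adjusted p = 0.323). Myh6 lay between 18.76 and 18.95 on all male arrays, at the top of the intensity range, and changed by 0.06 ± 0.0747 (adjusted p = 0.67). Quantile normalisation gives the brightest probes the same few values on every array, so a change of Myh6 could hardly be seen. Nppa and Nppb, markers of wall stress, changed by -0.68 ± 0.76 and 0.17 ± 0.43 (adjusted p = 0.626 and 0.851), with Nppa between 10.12 and 13.36 (median 12.46) under CLP plus landiolol.

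Of 45 genes of fatty acid uptake and oxidation, 1 rose and 2 fell (median -0.13), so 6.67% were called, against 4.15% of all probes. Ppargc1b, a coactivator of mitochondrial genes, was at 10.60, 11.14, 10.62, 11.32 and 10.96 in sham, 8.97, 8.55, 8.66, 7.77 and 7.42 in CLP and between 8.96 and 9.89 (median 9.25) under CLP plus landiolol, a change of -1.55 ± 0.27 (adjusted p = 0.00199). Ppara, the receptor that drives fatty acid oxidation genes, had sham levels of 11.26, 11.94, 11.76, 11.90 and 11.92 and lay between 10.24 and 11.14 (median 10.72), a change of -1.08 ± 0.20 (adjusted p = 0.00249). The transport gene Cpt1b had a change of 0.16 and did not pass.

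In glucose metabolism 2 of 43 fell and 0 rose (median -0.27), Hk2 and the muscle glycolytic enzyme Pgam2 (-0.67 ± 0.14, adjusted p = 0.00637). In the respiratory chain 1 of 70 fell (median -0.23), the complex I gene Ndufb10, from 15.96, 15.96, 16.003, 16.06 and 15.97 in sham to levels between 15.49 and 15.71 (median 15.55), a change of -0.41 ± 0.0895 (adjusted p = 0.00795). A positive change was seen for 4 of the 70 chain genes, and the median stayed between -0.27 and -0.17 over the alternative fits. Of 57 ribosome and translation genes 2 rose (median 0.19), the translation inhibitor Eif4ebp1 (1.39 ± 0.28, adjusted p = 0.00492) and the initiation factor Eif1a (0.98 ± 0.21, adjusted p = 0.00828), and 50 of the 57 had a positive change. The mean level of the ribosome list lay between 15.0 and 15.1 on sham arrays and between 15.2 and 15.3 on CLP plus landiolol arrays. Calls made up 4.65% of the glucose, 1.43% of the respiratory chain and 3.51% of the ribosome list, against 4.15% of all probes. The calls of Pgam2, Ndufb10, Eif4ebp1 and Eif1a were lost in 11, 13, 8 and 17 of 27 alternative fits.

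Of 53 extracellular matrix genes and proteases, 7 fell and 1 rose (median -0.39, or -0.24 without CLP plus landiolol replicate 4), and 17 fell and 2 rose in CLP vs sham (median -0.35). Loxl1, an enzyme that cross-links elastin, had sham levels of 9.14, 9.30, 9.37, 9.09 and 9.32 and lay between 6.32 and 7.95 (median 7.09), a change of -2.24 ± 0.33 (adjusted p = 0.000569). Col15a1, a collagen of basement membranes, was at 13.71, 13.54, 13.95, 13.60 and 13.32 in sham and between 11.60 and 12.37 (median 12.17) under CLP plus landiolol, a change of -1.52 ± 0.23 (adjusted p = 0.000676). For both genes all treated arrays lay more than 0.9 below the lowest sham array. Col14a1 (-1.37), Col8a1 (-1.29), Tgfb3 (-1.21) and Loxl2 (-1.07) fell as well, and the membrane protease Mmp14 rose by 0.93. Tnc, tenascin C, was well above background on 0 of 6 CLP plus landiolol arrays and was at least 1.45-fold lower (adjusted p = 0.00756). Its groups overlapped, the call was lost in 17 of 26 alternative fits, and the change was -0.28 with normexp background correction and -0.0924 with the table of the authors. The main fibrillar collagen genes Col1a1 (-1.39) and Col3a1 (-1.46) did not pass.

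Of 44 genes of endothelium, coagulation and vessels, 1 fell and 1 rose, with a median of 0.02 that changed sign in 7 alternative fits. These calls are 4.55% of the list, against 4.15% of all probes. Apln, the inotropic peptide apelin, had sham levels of 11.76, 11.78, 11.76, 11.72 and 11.88 and lay between 8.55 and 9.87 (median 9.67), a change of -2.29 ± 0.30 (adjusted p = 0.00022). All treated arrays lay more than 1 log2 unit below the lowest sham array. Ace, the angiotensin-converting enzyme, rose by 1.33 ± 0.25 (adjusted p = 0.00304), a call that was lost in 4 of 27 alternative fits, without sham replicate 2, 3 or 4 and with the day number as a term. The adhesion genes Icam1 (-0.16), Vcam1 (0.29) and Sele (0.09) did not pass.

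In the cell division list, 4 of 38 fell and 0 rose (median -0.22), among them all 3 D-type cyclins, which drive entry into the cycle. Ccnd1 had sham levels of 10.06, 10.02, 10.32, 10.37 and 10.005 and lay between 7.55 and 9.17 (median 8.19), a change of -1.89 ± 0.23 (adjusted p = 0.000136). Ccnd2 changed by -1.42 ± 0.22 (adjusted p = 0.000843) and Ccnd3 by -0.75 ± 0.17 (adjusted p = 0.00936), the latter with -0.24 ± 0.17 in CLP vs sham (adjusted p = 0.408) and lost in 17 of 27 alternative fits. The helicase gene Mcm5 fell by 0.62, and the proliferation markers Mki67 (-0.04) and Top2a (-0.66) did not pass. In the circadian clock list 0 of 21 passed in limma and 4 had an unadjusted p under 0.05. Its median of -0.10 changed sign in 2 alternative fits.

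Of the named genes that were called, 21 had another probe, in 0 of them with the opposite sign, and in 13 at least 1 other probe missed the FDR of 1%. The second probe of Nmrk2 changed by -1.04 ± 0.26 (adjusted p = 0.0206), that of Fcer2 by -2.21 ± 0.52 (adjusted p = 0.0135) and that of Msr1 by 1.14 ± 0.26 (adjusted p = 0.0104). These changes were smaller than those of the probes given above. The second probe of Bnip3 changed by 1.51 ± 0.48 (adjusted p = 0.0575) and that of Hk2 by -1.07 ± 0.27 (adjusted p = 0.018). The other probes of Cd36 changed by 0.82 ± 0.23 and 0.56 ± 0.16 (adjusted p = 0.0335 and 0.0422), and 1 of the other 2 of Kcnd2 by -1.62 ± 0.45 (adjusted p = 0.0328). Second probes of Il6st, Irak3, Kcnk2 and Il10, and 1 other probe each of Ppara, Scgb2a1 and Kcnd2, also missed the threshold. Both other probes of Myot and the second probes of Jph2, Apln, Ccnd1, Ace, Eif1a, Papln and Myocd passed. The second probe of Ryr2 changed by 0.0570, of opposite sign to the probe given above, and did not pass.

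The same contrast was measured in females on slides of their own. A difference between the sexes therefore cannot be told apart from a difference between slides. Of the 1074 probes called in males, 1062 (98.9%) had the same direction in females, where 71.6% of all probes did. Their median size was 1.07 in males and 0.93 in females on the 32 arrays normalised together, and 61.1% were smaller in females, in the sex in which they were not selected. The difference between the sexes was tested for 26490 probes, and 0 (0%) passed an FDR of 5% in limma, while 1669 had an unadjusted p under 0.05 and the smallest adjusted p was 0.213.

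**Figure D5:**
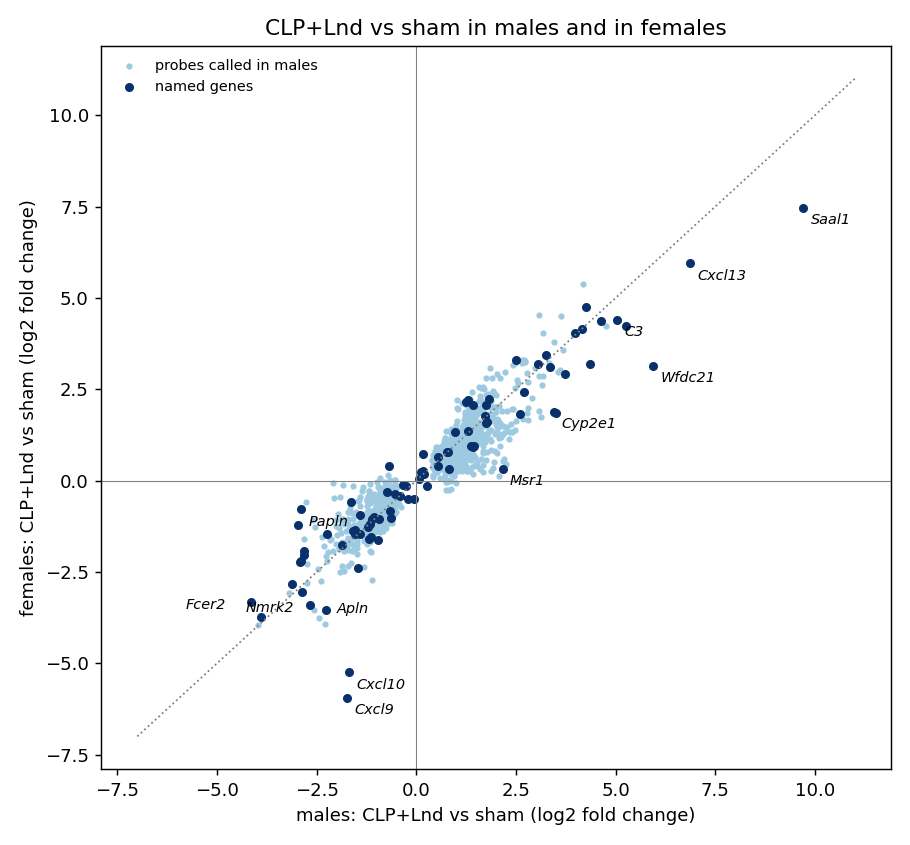
Log2 fold change of CLP plus landiolol vs sham in males (x axis) and females (y axis), for the probes called in males (light) and the named genes (dark), from 32 arrays normalised together. Most points follow the dotted line of equal change, and Cxcl9 and Cxcl10 lie far below it.

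The widest differences between the sexes among the named genes were in chemokines induced by interferon. Cxcl9 changed by -1.74 in males and -5.95 in females, a difference of 4.21 (adjusted p = 0.213), and Cxcl10 by -1.68 and -5.25, a difference of 3.57 (adjusted p = 0.213). Without male sham replicate 1, which was the highest for both, 4 probes passed, those of Cxcl9, Cxcl10, the factor Batf2 and BC086424. Without female sham replicate 4, 3 passed, among them those of Cxcl9 and BC086424. Batf2 and BC086424 were chosen after their values were seen. Saal1 rose by 9.71 in males and 7.46 in females (difference 2.25, adjusted p = 0.589), Wfdc21 by 5.94 and 3.15 (adjusted p = 0.473), and Cyp2e1 by 3.46 and 1.88 (adjusted p = 0.619). Msr1 changed by 2.16 in males and 0.32 in females (adjusted p = 0.473), and none of these differences passed. Close values were found for C3 (5.04 and 4.39), Adgre1 (3.26 and 3.43), Adra1d (-2.86 and -3.04), Jph2 (-1.59 and -1.38) and Tuba8 (-1.12 and -1.06).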

How the data were processed

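Left ventricles were profiled on Agilent 1-colour arrays, 1 heart per array. Per the file headers, the authors deposited scanner output with spot intensities that Agilent Feature Extraction 10.5 (version from the submitters' processing notes) had background-subtracted and detrended but not normalised between arrays. The deposited table of log2 values, quantile-normalised by the authors within a sex, served as an alternative, and whether an offset was added to it is not given in the sources used here.

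Groups came from the labels of sex and treatment. Each array had 62976 spots. Log2 processed signals of 45598 non-control probes, with outlier spots left out and replicate spots averaged, were quantile-normalised over the 16 male arrays, and 70 values were missing. Probes well above background on 80% of the arrays of at least 1 group were tested with limma 3.58.1 in R 4.3.3 (lmFit and eBayes, 3 groups), with Benjamini-Hochberg adjustment and an FDR of 1% against sham and 5% against CLP. The difference between the sexes was an interaction term over 32 arrays at an FDR of 5%. A gene is given by its probe with the highest mean, and no gene had probes called in opposite directions. Where 1 group was never well above background, "at least" gives the bound against the dimmest signal that was. That bound holds for the main background subtraction only. With normexp the change was below it for Wfdc21, S100a8, Scgb2a1, Klk14 and Tnc.

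A symbol was found for 28984 of the 45598 probes, from the names or accessions in the files and a RefSeq table of 47357 genes. Genes named with values were the 10 largest rises and falls that were called and did not overlap, with 1 group well above background throughout, up to 3 called members of each of 27 lists, and 20 genes named for their role. Results for some of these genes are not reported here. Other called members, and members that did not pass but are well known, were named after their values were seen. Members and lists were chosen with earlier results of these data known. The labels give separate samples, so p-values measure the spread between these arrays. Other scaling, background correction, filters, models, thresholds and left-out arrays were tried, and the fit was tested on simulated data. The number of arrays limits the precision.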

Additional observations from a re-analysis of the deposited data

Results flagged for a closer look

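In 16 of 170 groups of named genes (85 genes, sham and CLP plus landiolol), 1 array stood apart by the ratio of its gap from the nearest array to the whole range of the group, and chance marks about 1 group in 20. Among CLP plus landiolol arrays, replicate 5 was the lowest for Bnip3 at 14.30 (ratio 0.651), for Ctsl at 14.56 (ratio 0.731), for Hsd11b1 at 10.46 (ratio 0.658) and for Cd36 at 15.92 (ratio 0.786). It was also the array with the lowest median signal, 49.2, and the part of that in these values was not tested. Replicate 1 was the lowest for Kcnk2 at 7.43 (ratio 0.815), for Apln at 8.55 (ratio 0.655) and for Jph2 at 13.51 (ratio 0.681), and the highest for Grk5 at 9.81 (ratio 0.752). Replicate 2 was the highest for Gal at 13.55 (ratio 0.821). For Myh6 replicate 3 was at 18.87 while the others were at 18.95 (ratio 0.999). Both are values that quantile normalisation gives to the brightest probes, so this gap is a step in rank. Among sham arrays, replicate 1 was the highest for Msr1 at 6.13 (ratio 0.746) and the lowest for Ppara at 11.26 (ratio 0.735) and Hk2 at 10.39 (ratio 0.775). Replicate 5 was the highest for S100a8 at 3.28 (ratio 0.812), replicate 4 the lowest for Scgb2a1 at 1.94 (ratio 0.764), and replicate 3 the highest for Ctsl at 14.46 (ratio 0.766). Neither S100a8 nor Scgb2a1 was well above background on a sham array. In every one of these groups but that of Myh6, the sham and CLP plus landiolol arrays of the gene did not overlap.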

How the results depend on the processing

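The count of probes that differed between male CLP plus landiolol and sham, 1074, was 2088 with array weights and 2538 at an FDR of 5%. Leaving out 1 array at a time gave 633 to 1130 probes, the lowest without sham replicate 4. The other alternatives, among them 75th percentile scaling, normexp background correction, other filters, the slide or the day number as a term, the table of the authors and SAM, gave 726 to 1386. The difference between the sexes, 0 probes, became 2 with normexp, 6 with array weights and 0 to 4 when 1 array was left out. A change of sign was seen for 3 genes, and none of these was called against sham. Myh6 was -0.0265 with the table of the authors, Nppb ran from -0.0941 to 0.422 and Crem from -0.172 to 0.0494 with 1 array left out. Of 69 named genes that were called, 50 passed in every other fit that could be made for them, 43 of them with 27 fits and 7 with 26, and 82 of 85 named genes kept their sign in every fit. List medians near 0 moved with the fit, from -0.34 to 0.05 for chemokines and cytokines, -0.28 to -0.07 for cell division, -0.32 to -0.07 for fatty acid oxidation, -0.17 to -0.03 for the sarcomere and -0.09 to -0.02 for the adrenergic list. The cause of these differences was not tested. No paired analysis was made, because each array came from the heart of a separate animal and the labels name no pairs. Replicate numbers follow the order of the samples in the series. Changes near the background are limited by the signal. For probes never well above background in 1 group only a bound is given, which holds for the main background subtraction and not with normexp.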
